A study of Xenopus tropicalis with 12 samples.

Results

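Thyroid hormone receptor (TR) was mapped on the chromatin of tadpole tail in Xenopus tropicalis by chromatin immunoprecipitation and sequencing. The regions described here had a peak in wild-type (WT) tails of both treatments and in no tail that lacked TRα. A peak is a stretch of the genome where sequenced fragments pile up above their surroundings, and its pileup is the number of fragments over its highest point, the summit. Peaks of the 12 lists, 1 list per library, were joined into regions wherever they overlapped by 1 bp or more. A WT-only region had a peak of at least 3 fragments in at least 1 WT T3 list and at least 1 WT control list, and no peak of any height in the 6 lists from tails without TRα (KO). The rule found 1326 such regions among 256032 merged regions, or 0.518%. The regions were thus chosen by their pileup in the WT lists and the absence of peaks from the KO lists, and these values are given as a description, with no test.

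The 4 groups of 3 libraries came from tails of tadpoles at about stage 54, and tadpoles of both genotypes had the same parents. The KO T3 and WT T3 groups, labelled TRaKO-Tail-T3 and WT-Tail-T3, had been kept in 10 nM T3, the active hormone, for 18 hours. The KO control and WT control groups (TRaKO-Tail-control and WT-Tail-control) were the untreated tails, and KO tadpoles were TRα (-/-). What limits these groups is that the series' design note speaks of technical replicates of merged tadpoles, so a spread between libraries need not be a spread between animals. The antibody is named as a non-commercial TR antibody, and whether it also binds TRβ is not given in the sources used here. There was no input library, so antibody enrichment at a peak cannot be told apart from a place that is rich in fragments with any antibody.

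TRα and TRβ are nuclear receptors that sit on DNA at T3 response elements, usually paired with the retinoid X receptor. Without hormone they recruit corepressors to their target genes, and with T3 bound they recruit coactivators. In tadpoles TRα is present early and widely, while the TRβ gene is itself induced by T3. The tail is the organ that T3 removes at metamorphosis.

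Depth was low and uneven. The 6 KO libraries held 149532 to 1547243 fragments and 4266158 in all, and the 6 WT libraries held 299393 to 1382723 and 4490653 in all. By group the sums were 2517089 for KO T3, 1749069 for KO control, 1602853 for WT T3 and 2887800 for WT control. Peaks of at least 3 fragments numbered 74611 in the KO lists and 99623 in the WT lists, so the WT lists had 1.34 times as many. The lowest pileup in a list was 2 in 9 lists, 3 in KO T3 2 and WT control 3, and 1 in KO T3 3. A missing peak therefore means that none was called at this depth.

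The same rule with the genotype labels exchanged found KO-only regions, which had peaks in both KO treatments and in no WT list. There were 1326 WT-only and 760 KO-only regions, or 0.518% and 0.297% of all merged regions. WT-only regions were thus 1.74 times as many. Set against the regions that could have qualified, the gap was smaller. Of 8108 regions with at least 3 fragments in a list of each WT treatment, 16.4% had no KO peak, and of 6969 regions with the same in KO, 10.9% had no WT peak.

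The excess of WT-only over KO-only regions was smaller in lists of equal length. When every list was cut to its best 13493 peaks, the length of the shortest, 895 WT-only and 833 KO-only regions were found. The shares of eligible regions were then 14.5% and 14.2%. With at least 2 lists of each treatment asked for as well, 34 WT-only and 20 KO-only regions were found. The cut also takes lower-ranked peaks of the other genotype out of the lists, and the cause of the change was not tested. Single libraries also decided which of the sets was the larger. Without WT T3 3 there were 632 WT-only and 937 KO-only regions, without WT control 2 there were 862 and 977, and without WT control 3 there were 770 and 1075. Without KO T3 2 the counts moved the other way, to 1813 WT-only and 318 KO-only regions, and without KO control 3 they were 1614 and 361.

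Absence from KO was 1 end of a gradual scale. Of the regions eligible in WT, 16.4% had a peak in no KO list, 16.6% in 1, 16.6% in 2, 17.3% in 3, 14.6% in 4, 11.1% in 5 and 7.40% in all 6. The WT-only regions were thus not set apart by their number of KO lists. At the depth of the KO libraries a region bound alike in both genotypes can also miss KO lists. This scale therefore cannot tell whether the WT-only regions form a separate class. For regions eligible in KO the shares were 10.9% with no WT list, 16.3% with 4 and 13.2% with all 6. The share in no list of the other genotype was higher for regions eligible in WT, and the share in all 6 was lower.

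**Figure D1:**
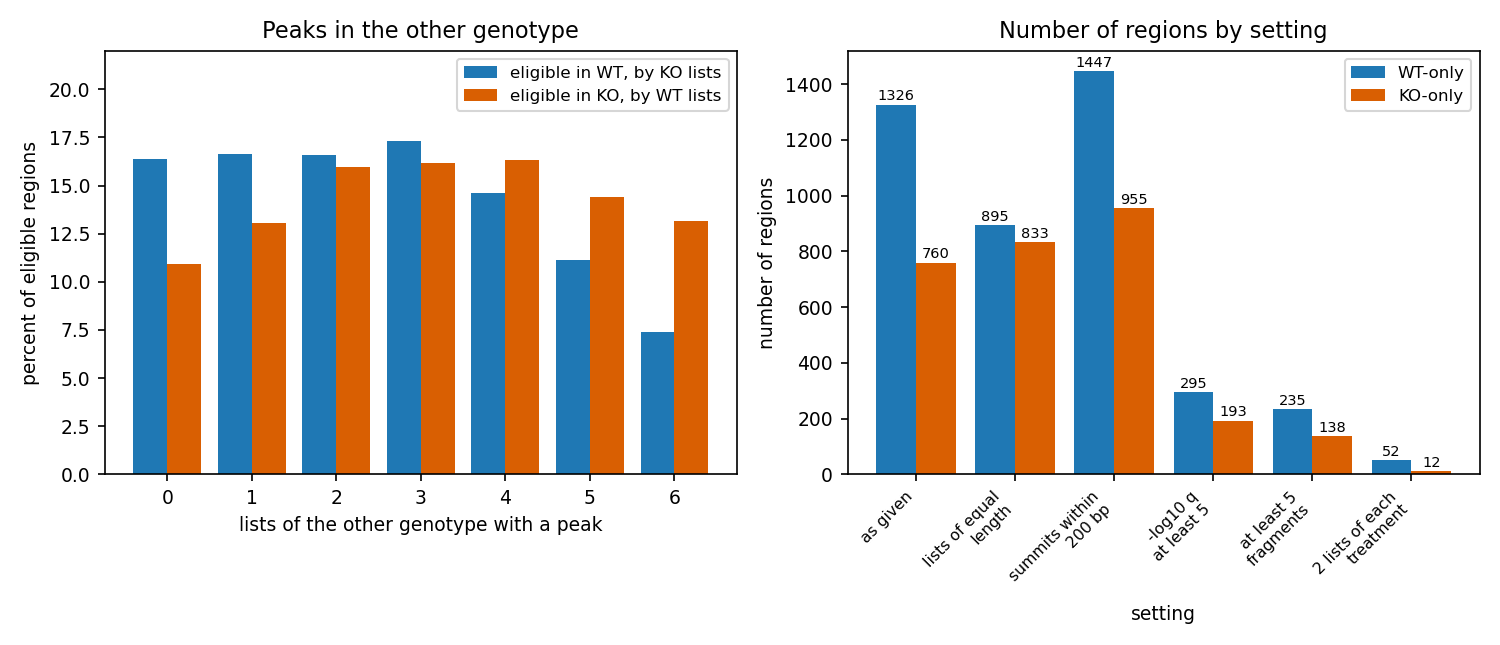
Left, percent of the regions with at least 3 fragments in both treatments of a genotype, by the number of lists of the other genotype (0 to 6) with a peak, for the 8108 regions eligible in WT (blue) and the 6969 eligible in KO (orange). Right, number of WT-only (blue) and KO-only (orange) regions as given (1326 and 760) and under 5 other settings. In proportion to each other they come closest in lists of equal length (895 and 833).

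Most WT-only regions were seen in few libraries. A peak was present in 2 of the 6 WT lists, the fewest the rule allows, in 947 of the 1326 regions (71.4%), in 3 lists in 269, in 4 in 84, in 5 in 22 and in all 6 in 4. KO-only regions were spread alike, with 564 of 760 (74.2%) in 2 lists, 155 in 3, 35 in 4, 6 in 5 and none in 6. By contrast, among the 6782 regions eligible in WT that did have a KO peak, 20.1% were in 2 WT lists and 13.9% in all 6. At least 3 fragments in at least 2 lists of each treatment were found in 52 WT-only and 12 KO-only regions, and in 34 and 20 when lists of equal length were used.

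The 4 regions with a peak in every WT list were modest in height. Region 1, on chromosome 4 from 132502785 to 132503790 (build 9.1), held summits of 6, 9 and 8 fragments in the WT T3 lists 1, 2 and 3 and of 7, 6 and 6 in the WT control lists 1, 2 and 3. It was even across all 6 lists, although these differed in depth. Region 2, on chromosome 10 from 37990844 to 37991668, showed 4, 2 and 2 fragments in the T3-treated WT lists and 2, 6 and 9 in WT control. Region 3, on chromosome 9 from 11817777 to 11818912, held 2, 4 and 4 in the T3-treated WT lists and 5, 2 and 5 in WT control. Region 4, on chromosome 2 from 5094571 to 5095863, held 2, 5 and 3 in the T3-treated WT lists and 2, 3 and 4 in WT control. In all 4 regions the T3 and control pileups overlapped, and in regions 2 to 4 peaks of 2 fragments made up part of the agreement.

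Taller peaks were found among the regions with 5 WT lists. Region 5, on chromosome 1 from 81087438 to 81087929, reached 18, 13 and 12 fragments across WT T3 1, 2 and 3, none called in WT control 1, and 12 and 6 in WT control 2 and 3. It was highest in the shallowest WT library. Region 6, on chromosome 7 from 95759216 to 95759565, showed 6, 12 and 12 fragments in the T3-treated WT lists and none, 13 and 27 in WT control. Its fold enrichment, the authors' ratio of pileup to local background with a constant added to each, reached 15.01, the highest of the WT-only regions, and its −log10 q reached 27.4. Region 7, on chromosome 7 from 116733125 to 116735560, showed 6, 6 and 18 fragments in the T3-treated WT lists and none, 9 and 21 in WT control. With 2436 bp it was the widest WT-only region, and it lay 0.435 Mb from the end of its chromosome.

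Region 8, on chromosome 7 from 17658664 to 17659177, showed 6, 11 and 13 fragments in the T3-treated WT lists and none, 11 and 10 in WT control. Region 9, on chromosome 9 from 16608874 to 16609249, held 12, none and 11 in the T3-treated WT lists and 2, 5 and 10 in WT control. It was the only region among 5 to 12 with a T3 list missing. Region 10, on chromosome 1 from 144649722 to 144650239, showed 4, 11 and 13 fragments in the T3-treated WT lists and none, 8 and 3 in WT control. Region 11, on chromosome 9 from 52643823 to 52645210, held 4, 10 and 8 in the T3-treated WT lists and none, 3 and 5 in WT control. Region 12, on chromosome 9 from 73500958 to 73501535, held 3, 4 and 9 in the T3-treated WT lists and none, 15 and 6 in WT control.

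Among the regions with 5 WT lists, WT control 1 was the list most often missing, whereas over all 1326 regions WT T3 1 was, with a peak in 191 against 217 for WT control 1. Of the 22 regions with 5 WT lists, 12 lacked WT control 1, 7 lacked WT T3 1, 2 lacked WT T3 2 and 1 lacked WT T3 3. WT control 1 held 480140 fragments, more than the 299393 of WT T3 1. The missing list was thus not always the shallowest, and no region with 5 lists lacked WT control 2 or 3.

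The rule for named regions also gave the 6 tallest of the remainder by summed pileup. Region 13, on chromosome 9 from 45623586 to 45624055, showed 20 fragments in WT T3 3 and 33 in WT control 3 and no other peak. The 33 fragments were the highest pileup of any WT-only region, but its fold enrichment reached only 2.27 and its −log10 q 1.87. Region 14, on chromosome 8 from 97889245 to 97889844, showed 5 and 11 fragments in WT T3 2 and 3, beside 8 and 18 in WT control 2 and 3. Region 15, on chromosome 2 from 71171251 to 71171726, showed 18 and 14 in WT T3 2 and 3, beside 9 in WT control 2. It had no peak in the deepest WT library, WT control 3.

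Region 16, on chromosome 2 from 155542074 to 155542662, showed 10 and 5 fragments in WT T3 2 and 3, beside 12 and 9 in WT control 2 and 3. Region 17, on chromosome 5 from 41625461 to 41625860, showed 12 and 6 in WT T3 2 and 3, beside 8 and 9 in WT control 2 and 3. Region 18, on chromosome 6 from 29698308 to 29699367, showed 7 in WT T3 3 and 4, 9 and 14 in WT control 1, 2 and 3. None of these 6 had a peak in WT T3 1, and only region 18 had one in WT control 1.

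**Figure D2:**
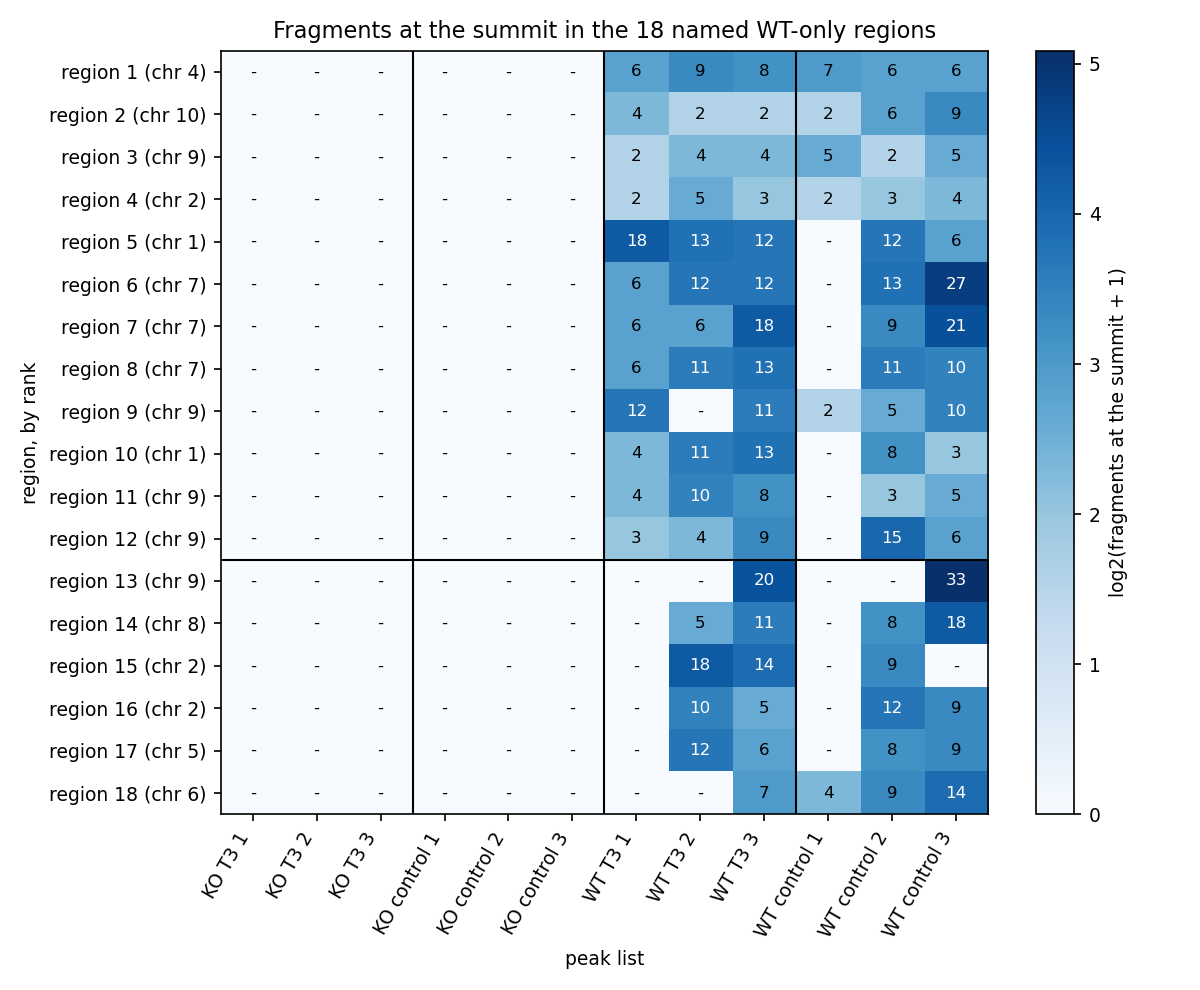
Fragments at the summit, unscaled, in the 18 named WT-only regions (rows) and the 12 lists (columns); a dash stands for no peak called, the colour gives log2(fragments + 1), and the horizontal line separates the 12 regions with the most lists from the 6 tallest of the rest. The KO columns are empty by the rule, and 12 of the 18 rows have no peak in WT control 1.

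The absence of a KO peak was set beside the nearest KO peak. The rule used KO peaks only to leave out regions that they overlap. These distances were not computed for all merged regions, so the shares below have no background beside them. The median WT-only region had its nearest KO peak 2498.5 bp away, and 320 of 1326 (24.1%) had one within 1000 bp, 91 (6.86%) within 200 bp. For KO-only regions the nearest WT peak was at a median of 2364.5 bp, and 215 of 760 (28.3%) had one within 1000 bp. Among the 18 named regions 6 had a KO peak within 1000 bp. Some of the tall ones stood next to tall KO peaks. Region 13 had a KO T3 1 peak of 20 fragments at 540 bp, region 14 a KO control 2 peak of 11 fragments at 797 bp, and region 18 a KO T3 2 peak of 17 fragments at 961 bp. Region 7 had a KO control 3 peak of 11 fragments at 1515 bp, and region 1 a KO control 3 peak of 7 fragments at 1042 bp. Region 4 had a KO T3 1 peak of 4 fragments at 213 bp, and region 9 a KO control 3 peak of 4 at 540 bp. Region 3 had a KO T3 3 peak of 1 fragment at 552 bp, and region 2 a KO T3 2 peak of 4 at 1033 bp. Regions 1 to 4, with a peak in every WT list, thus each had a KO peak within 1042 bp.

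Others of the named regions stood farther from any KO peak. The nearest to region 15 was 19.8 kb away with 3 fragments, the nearest to region 5 was 13.8 kb away with 2, and the nearest to region 11 was 8.60 kb away with 2. Regions 6, 8, 10, 12, 16 and 17 had theirs at 3.20 to 4.74 kb, with 2 or 3 fragments. The single nearest KO peak of these 9 regions was thus low, whereas that of regions 7, 13, 14 and 18 had at least 11 fragments. Peaks beyond the nearest were not counted.

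How many fragments the KO libraries would have held at the WT rate was computed by pooling the 6 WT pileups of a region, counting lists without a peak as 0, and scaling to the KO depth. The regions were chosen for their WT pileup, which puts this figure on the high side. The highest pileup of each list was taken wherever it lay in the region. Summits at different places were thus pooled, which can also raise the figure. Counting lists without a peak as 0 can lower it, so the net direction of its error is not known. The median WT-only region would have had 8.55 fragments over the 6 KO libraries together, but 3.10 in the deepest, KO T3 2, and 0.300 in the shallowest, KO T3 3. In 716 of 1326 regions (54.0%) the expected number reached the lowest called pileup of at least 1 KO list, and in 21 (1.58%) that of all 6. For the other 610 the expected number reached the lowest called pileup in no KO list.

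For the named regions the expected numbers were larger. These regions were picked by their number of WT lists and their summed pileup. The expected number is the summed pileup scaled to depth, so larger values follow from the choice. Region 6 would have had 66.5 fragments in the KO libraries together and 24.1 in KO T3 2, and region 5 would have had 58.0 and 21.0. Region 4, the lowest of the 18, would have had 18.1 and 6.55. All 18 were past the lowest called pileup of at least 4 KO lists on this scale, and 14 of them past that of all 6. That mark is low, as it was 1 fragment in KO T3 3, where region 18 was past it with 1.13.

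The pileup minimum set the size of the set. In 805 of the 1326 regions (60.7%) the lower of the best T3 and the best control pileup was exactly 3, and 231 had 3 in both. It was 5 or more in 235 and 10 or more in 18. Just outside the threshold, 2046 regions without a KO peak had a lower best pileup of 2, with a median summed WT pileup of 5, against 7 for the regions at 3. On the KO side, 296 regions eligible in WT were left out by a single KO list whose highest pileup there was 1 or 2 fragments. Another 1052 were left out by a single KO list with at least 3.

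How many of these regions each WT list held is a description, since the rule chose them by peaks in the same lists and every member has a peak of each treatment. WT T3 1, 2 and 3 had a peak in 191, 523 and 827 of the 1326 regions, and WT control 1, 2 and 3 in 217, 684 and 729. The means were 514 ± 318 in WT T3 and 543 ± 284 in WT control (SD, n = 3 each), and the lists of the groups overlapped. The difference, T3 minus control, was -29.7 regions per list.

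Scaled to depth the WT T3 lists stood higher. They had 638, 988 and 1068 WT-only regions per 1000000 fragments, and the WT control lists 452, 667 and 527. The means differed by 349, and WT T3 1 lay below WT control 2. As a share of the peaks of at least 3 fragments in a list, a measure added after the data were seen, WT-only regions made up 3.47%, 3.91% and 4.19% in WT T3 and 2.29%, 2.51% and 2.45% in WT control. These did not overlap. The WT T3 lists held 36560 such peaks and the WT control lists 63063. Every member needs a peak of each treatment, so the rule by itself can give a higher share in the treatment with fewer peaks. How much of the difference this makes up was not tested. For KO-only regions the same shares were 2.13%, 2.33% and 2.16% in KO T3 and 1.98%, 2.17% and 2.32% in KO control, where the numbers of peaks were close (36617 and 37994).

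**Figure D3:**
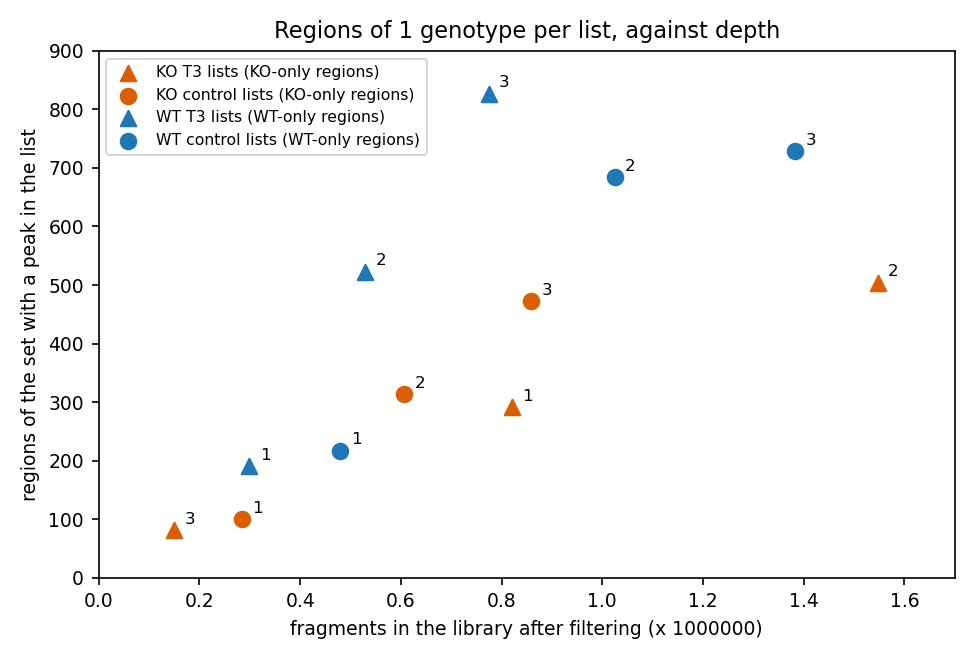
Number of WT-only regions with a peak in each WT list (blue) and of KO-only regions with a peak in each KO list (orange), against the fragments of the library (in units of 1000000), with triangles for T3, circles for control and the replicate number beside each point. Numbers are lowest in the shallow libraries of each genotype (81 in KO T3 3, 191 in WT T3 1), and WT T3 3 has the most, 827.

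Region by region, 1087 of 1326 WT-only regions (82.0%) had more fragments per 1000000 in WT T3 than in WT control when the lists of a treatment were pooled, against 63.3% of all regions eligible in WT. With a pileup minimum of 2, 4 and 5 the share was 77.8%, 83.1% and 84.7%, and with 2 lists of each treatment it was 90.4%. Among the 26 members in 5 or 6 WT lists it was 76.9%. The cause of the share was not tested. A single peak of 3 fragments is worth 1.87 per 1000000 in the pooled WT T3 libraries and 1.04 in the deeper WT control libraries, and 89.4% of the members in 2 lists were higher in T3. For regions in 2 WT lists that had a KO peak the share was 81.0%. Without WT control 2 the 82.0% became 51.2%, without WT control 3 it became 39.2%, and without WT T3 3 it became 94.9%.

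List by list, 10 WT-only regions (0.754%) had all 3 WT T3 lists above all 3 WT control lists per 1000000 fragments, against 2.69% of all regions eligible in WT. In the other direction there were 2 (0.151%), against 1.59%. Regions 5, 8, 10 and 11 were among the 10. Pooled, region 5 had 26.8 fragments per 1000000 in WT T3 and 6.23 in WT control, region 8 had 18.7 and 7.27, region 10 had 17.5 and 3.81, and region 11 had 13.7 and 2.77. In each of these 4, WT control 1 had no peak and was counted as 0. The other direction was rarer among the named regions. Region 18 had 4.37 in WT T3 and 9.35 in WT control, and region 2 had 4.99 and 5.89, while the other 16 were higher in WT T3.

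A peak in all 3 WT T3 lists was found in 22 WT-only regions (1.66%), against 16.6% of all regions eligible in WT. A peak in all 3 WT control lists was found in 35 (2.64%), against 29.1%. At least 2 lists of each treatment held a peak of any height in 83 (6.26%), against 39.4%. These shares lie below the background, as the number of lists per region does. Among the 80 regions that every WT T3 list and no KO T3 list had, 22 (27.5%) were WT-only, and among the 343 that every WT control list and no KO control list had, 35 (10.2%) were.

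**Figure D4:**
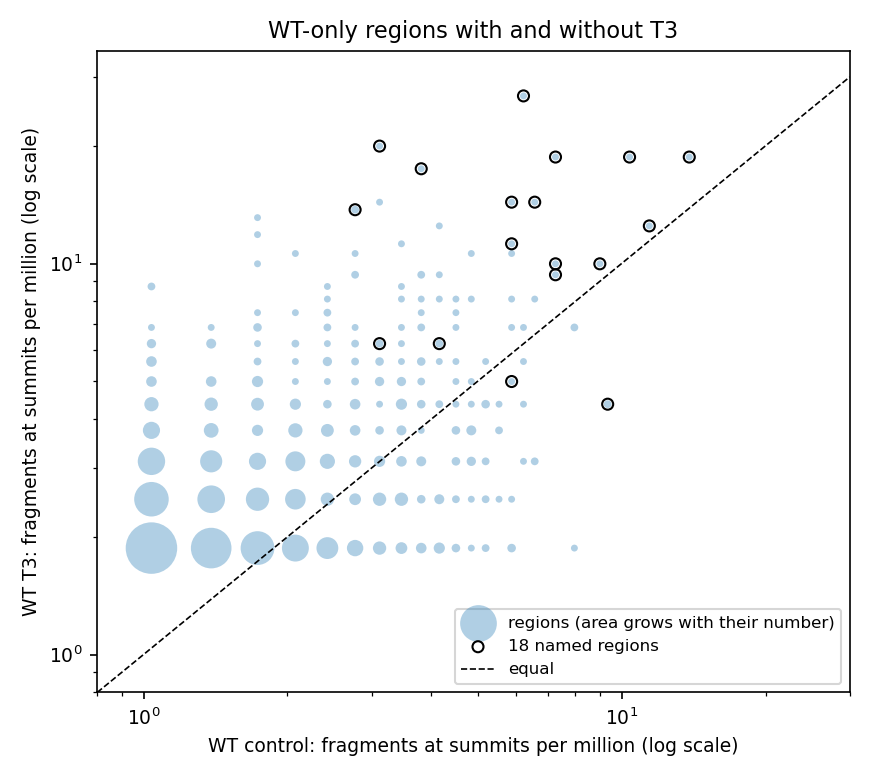
Fragments at summits per 1000000, summed over the 3 WT T3 libraries (vertical) and the 3 WT control libraries (horizontal), both on log scales, for the 1326 WT-only regions, with larger discs for more regions at 1 place, rings for the 18 named regions and a dashed line of equality. Most regions sit in the lower left near the smallest values the rule allows, 1.87 for T3 and 1.04 for control, and 16 of the 18 rings lie above the line.

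WT-only regions were narrower and lower than the regions eligible in WT that had a KO peak. Their median width was 513.5 bp (quartiles 381 and 735), against 899 bp, and their median highest pileup was 5, against 9. A −log10 q of at least 5 was reached by 296 (22.3%), against 74.96%. Width, pileup and −log10 q were taken over the lists of both genotypes. In the regions with a KO peak they thus include KO peaks. WT-only regions have no KO peak, so the rule by itself can make them narrower and lower. How much of the gap this makes up was not tested. All merged regions had to reach no pileup minimum. Their median width was 234 bp and their median highest pileup 2, with 4.80% past that threshold. KO-only regions had a median width of 501.5 bp and a median highest pileup of 5, with 21.2% past that threshold. In width and height the regions of 1 genotype were thus close to their exchange-label counterpart. The highest KO-only pileup, however, was 87 fragments, against 33 in the WT-only set. It stood on chromosome 7 from 95778414 to 95778581, 18.8 kb from region 6, with 26 fragments in KO T3 3 and 87 in KO control 1.

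The first of the KO-only regions named by the same ranking lay on chromosome 7 from 12447957 to 12448215. It showed none, 25 and 9 fragments in KO T3 1, 2 and 3 and 34, 67 and 72 in KO control 1, 2 and 3. The next, on chromosome 3 from 9112751 to 9113127, had none, 10 and 2 in KO T3 and 13, 11 and 11 in KO control. The third, on chromosome 3 from 65990077 to 65990351, had none, 11 and 3 in KO T3 and 5, 6 and 8 in KO control. The other 3 (chromosome 5 from 6167220, chromosome 4 from 112591922 and chromosome 9 from 5743876) had at most 6 fragments in any list. The exchanged rule thus gave regions in up to 5 lists, fewer than the 6 of regions 1 to 4, and summits taller than any WT-only region had.

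The T3 and the control peak of a WT-only region were also compared by the place of their summits, which the rule does not use beyond the overlap. The tallest T3 and the tallest control summit were a median of 126.5 bp apart, and in 560 of 1326 regions (42.2%) they were within 100 bp. Over all 11605 merged regions with a peak in both WT treatments the values were close, with a median of 133 bp and 41.6% within 100 bp. For KO-only regions the median was 124.5 bp with 43.2% within 100 bp, and for regions eligible in WT with a KO peak it was 128 bp with 44.2%. Regions with a peak in all 12 lists stood apart with a median of 36 bp and 66.4%. Among the 18 named regions 13 had summits within 100 bp. The closest were region 10 (2 bp), region 2 (8 bp), and regions 5 and 6 (9 bp each), and the farthest was region 7 (659 bp).

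Along the chromosomes, WT-only regions were more frequent towards the ends than merged regions in general. Chromosome spans were taken from the first to the last peak of any list. Within 5 Mb of an end lay 339 of 1326 WT-only regions (25.6%), against 9.05% of all merged regions. The share was 22.1% for KO-only regions and 37.7% for regions eligible in WT with a KO peak. It grew with the number of WT lists, from 23.4% of the members in 2 lists to 27.9% in 3 and 38.2% in 4 or more. At matched numbers of WT lists it was lower than in regions with a KO peak, which had 31.0%, 37.0% and 40.5%. With a pileup minimum of 2 the WT-only share was 16.6%, and with 2 lists of each treatment it was 40.4%.

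**Figure D5:**
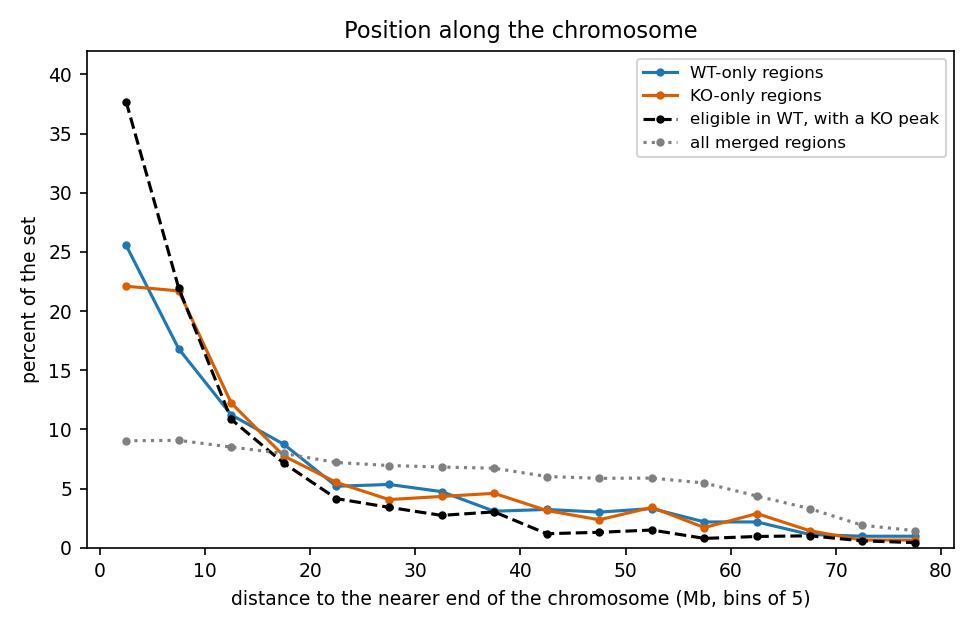
Percent of each set by distance to the nearer end of the chromosome in bins of 5 Mb, for WT-only regions (blue), KO-only regions (orange), regions eligible in WT with a KO peak (black dashes) and all merged regions (grey dots). In the bin nearest the end the WT-only set has 25.6%, the KO-only set 22.1%, the regions with a KO peak 37.7% and all regions 9.05%.

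By chromosome, WT-only regions numbered 81 on chromosome 10 to 187 on chromosome 1. Their density was 0.869 per Mb on chromosome 4 to 1.15 on chromosome 3 among chromosomes 1 to 8, and was higher on the short chromosomes 9 (1.39) and 10 (2.03). KO-only regions were also densest on chromosome 10, with 1.08 per Mb, and had 0.512 to 0.634 per Mb elsewhere. The ratio of WT-only to KO-only regions was above 1 on every chromosome, from 1.45 on chromosome 4 to 2.20 on chromosome 9. Regions eligible in WT were also dense there. Chromosome 10 held 577 of them on 39.9 Mb and chromosome 9 held 729 on 80.4 Mb, against 978 on 195 Mb of chromosome 1. The share of eligible WT regions without a KO peak was 13.6% on chromosome 6 to 19.2% on chromosome 3. On chromosomes 9 and 10 it was 15.4% and 14.0%, below the 16.4% over all chromosomes.

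Most WT-only regions had no other WT-only region within 50 kb. What share would have one if the regions were scattered evenly was not computed. A neighbour of the same kind within 10 kb was found for 54 of 1326 (4.07%), as 27 pairs, and within 50 kb for 254 (19.2%). The largest group at 50 kb had 4 regions, on chromosome 3 between 129964488 and 130064883. KO-only regions, which were fewer, had such a neighbour within 10 kb in 2.37% and within 50 kb in 9.47%. A region with a peak in all 12 lists lay within 10 kb of 14 WT-only regions (1.06%), of 1.32% of KO-only regions and of 2.56% of the regions eligible in WT with a KO peak. Of all merged regions it was 0.446%. The last 2 shares leave out the regions in all 12 lists themselves.

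Under 19 other settings, which changed the thresholds or left out a library, 10 of the 18 named regions met the rule every time. Leaving out a KO library or lowering the pileup minimum to 2 cannot remove a member, so only the other settings could have done so. They were regions 1, 5, 6, 8, 9, 10, 12, 14, 16 and 17. Region 7 stopped being WT-only when summits within 200 bp were used as the overlap, and region 13 did so under 6 of the 19 settings. Regions 2, 3 and 4 dropped out at 5 fragments and at a −log10 q of 5. No genome sequence or gene annotation of build 9.1 was used here, so genes and T3 response elements at these regions were not analysed here.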

How the data were processed

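The 12 deposited lists are the authors' peaks, 1 list per library. Per the submitters' processing notes, Bowtie2 2.3.4.1 and MACS2 2.1.1.20160309 were used. Each library was called alone on paired-end fragments without duplicates, with no control library, at a q-value cutoff of 0.05 on build 9.1, per the file headers. The deposited pileup is a signal, the unscaled number of fragments at the summit. The deposited fold enrichment is a ratio to the background around the peak, and −log10 of the p-value and q-value are the authors' own. These values were used to describe, rank or filter peaks, also across lists that differ in depth. The same unscaled pileup minimum was applied to every list, and pileups were summed over lists to rank regions. The highest pileup, fold enrichment and −log10 q of a region were taken over its lists. Depth is the filtered fragment number that each header gives. Coordinates count from 1.

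Merging and counting used Python 3.11.15, numpy 2.4.6 and pandas 2.3.3, and the rule was run on simulated lists with planted regions. The simulated background peaks lay apart from the planted regions and below the minimum of 3 fragments. The run thus checked the computation only, and could not show how the rule behaves in lists like these. The named regions are the 12 WT-only regions with the most WT lists (then the highest summed pileup per 1000000 fragments), the 6 others with the highest summed pileup, and 6 KO-only regions by the first ranking. The members and these rules were chosen with earlier results of these data known. A permutation test of WT-only regions per list, T3 against control, had been planned, but the rule chose the regions by peaks in the same lists, so its p-values are not given. Alternatives were other pileup minimums (2, 4 and 5), −log10 q of at least 5, summits within 200 bp, the best 13493 peaks of each list, 2 lists of each treatment, scaling per list, pairing by replicate number, and each library left out in turn. The share of peaks of at least 3 fragments, and lists of equal length combined with 2 lists of each treatment, were added after the data were seen. Genes and DR4 elements had also been planned; they were not analysed here for lack of a build 9.1 genome in use here.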

Additional observations from a re-analysis of the deposited data

How the results depend on the processing

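WT-only regions outnumbered KO-only regions under every change of threshold or overlap that was tried, and the reverse held without WT T3 3, WT control 2 or WT control 3. With a pileup minimum of 2, 4 and 5 there were 3372, 521 and 235 WT-only and 1909, 300.0 and 138 KO-only regions, and 29.1%, 9.16% and 5.82% of regions eligible in WT had no KO peak. At a −log10 q of at least 5 the values were 295, 193 and 14.5%, and with 2 lists of each treatment 52, 12 and 2.01%. Summits within 200 bp gave a share of 20.4% and lists of equal length 14.5%. Lists of equal length with 2 lists of each treatment, chosen after seeing the data, gave 34, 20 and 1.57%. Leaving out 1 library gave 632 to 1813 WT-only regions, 318 to 1075 KO-only regions and shares of 12.4% to 22.4%. Stricter settings admit fewer peaks, and leaving out a library of 1 genotype by itself tilts the counts towards the other genotype. How much of these changes this makes up was not tested.

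The difference in WT-only regions per WT list, T3 minus control (-29.7), is tied by the rule and is given without a test. It was 2.33 with 2 lists of each treatment, 349 per 1000000 fragments, 0.106 percentage points as a percent of the list's peaks and 1.44 as a percent of its peaks of at least 3 fragments, each of the opposite sign. Leaving out 1 library gave -228 to 174, positive without each WT T3 list and more negative without each WT control list. Every member then needs a peak in the fewer lists left of that treatment. How much of the change this makes up was not tested. With the replicate block, pairing lists by number, the mean difference is the same -29.7. The deviations of same-numbered WT lists from their group means correlated by 0.0419, 0.00201 and 0.0465 over 8108 regions, so the numbers were not taken to pair the lists. Not every list correlated best with its own number: WT T3 2 had 0.0161 with WT control 1. Fragment size, however, rose with the number, from 167 to 191 and 209 bp in WT T3 and from 151 to 179 and 201 bp in WT control. In KO control it was 155, 190 and 204 bp, but in KO T3 171, 189 and 142 bp. Whether lists of the same number shared their handling was not tested. The share of WT-only regions within 5 Mb of an end was 24.9% to 27.7% without 1 library. The share of WT-only regions higher per 1000000 fragments in WT T3 was 39.2% to 94.9% without 1 library.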
